A study of Mus musculus with 32 samples.

Results

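Wnt ligands, their receptors and the secreted proteins that hold them in check were followed as a group of 42 genes among the 39676 genes counted in mouse mesothelioma tumors. The members were taken by gene symbol. They are 15 Wnt ligands, 8 Frizzled receptors, 4 co-receptors (Lrp5, Lrp6, Ror1 and Ror2), 6 R-spondins and Lgr receptors, 8 secreted inhibitors (Dkk, Sfrp and Wif1 genes) and Axin2.

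RNA from whole tumors was sequenced in 4 groups of 8 mice. AB1 mesothelioma cells were grown in BALB/c mice and AE17 mesothelioma cells in C57BL/6 mice, each either in the pleural cavity (intrapleural, IPL) or under the skin of the flank (subcutaneous, SC). All 32 mice were untreated, aged 8 to 10 weeks, and their tumors were collected on day 10. The cells were given in 200 µL in the pleural cavity and in 100 µL under the skin, so volume and site cannot be told apart. The tumors were harvested with the tissue around them, which was then removed before the RNA was taken. Each model rests on 1 cell line. Line, strain, injected cell number and, within each site, sequencing lane changed together between the models, so these cannot be told apart there.

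Wnts are secreted lipid-modified proteins that bind Frizzled receptors. Together with Lrp5 or Lrp6 they stabilize beta-catenin, which enters the nucleus and switches on target genes with TCF and LEF factors, whereas Wnt5a and its relatives also act through Ror1 and Ror2 without beta-catenin. R-spondins and Lgr receptors raise the amount of Frizzled on the cell surface, Sfrp proteins and Wif1 capture Wnts outside the cell, and most Dkk proteins bind Lrp5 and Lrp6. Axin2 is part of the machinery that degrades beta-catenin and is itself a widely used beta-catenin target.

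Total counts per tumor ran from 15432258 to 20649645, so that 3 counts stood for 0.139 to 0.19 CPM (counts scaled to library size and composition). AB1 IPL replicates 2 and 4 and AE17 IPL replicate 5 lay farthest from their groups over all genes. Among the mesothelial markers, Upk3b had at most 1 count in every SC tumor of either model, reached 590 counts in AB1 IPL replicate 2, and lay between 0 and 114 counts in the AE17 IPL tumors. AB1 IPL replicate 2 had the highest level of its group for 12 of the 24 members counted, and AE17 IPL replicate 5 for 12 of 27. The lowest level of the group was held by AB1 IPL replicate 8 for 10 of 24 and by AE17 IPL replicate 1 for 14 of 27. Hair follicle keratins and related genes summed to 130.9, 133.4 and 20.5 CPM in AE17 SC replicates 5, 6 and 7, against at most 8.90 CPM in the other AE17 SC tumors.

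The models differed in which members led each role. To compare genes with each other, mean CPM were divided by the exon length of the gene. In AB1 tumors Wnt10a was the most abundant ligand per length, at 5.45 ± 0.449 CPM per kb (SD, n = 8) in SC tumors and 3.98 ± 0.708 in IPL tumors, where it made up 75.7% and 51.1% of all ligand signal per length. Wnt9a followed at 0.927 ± 0.228 and 1.98 ± 0.449 CPM per kb, clear of Wnt10a by more than their spread. In AE17 tumors Wnt5a led with 12.9 ± 2.56 CPM per kb in SC and 9.97 ± 0.826 in IPL tumors, or 35.4% and 31.9% of the ligand signal, while Wnt10a (7.12 ± 2.50) and Wnt9a (6.80 ± 1.42), next in SC tumors, did not differ beyond their spread. In the AE17 IPL tumors Wnt5a and Wnt9a (8.63 ± 2.42) likewise lay within their spread.

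**Figure D1:**
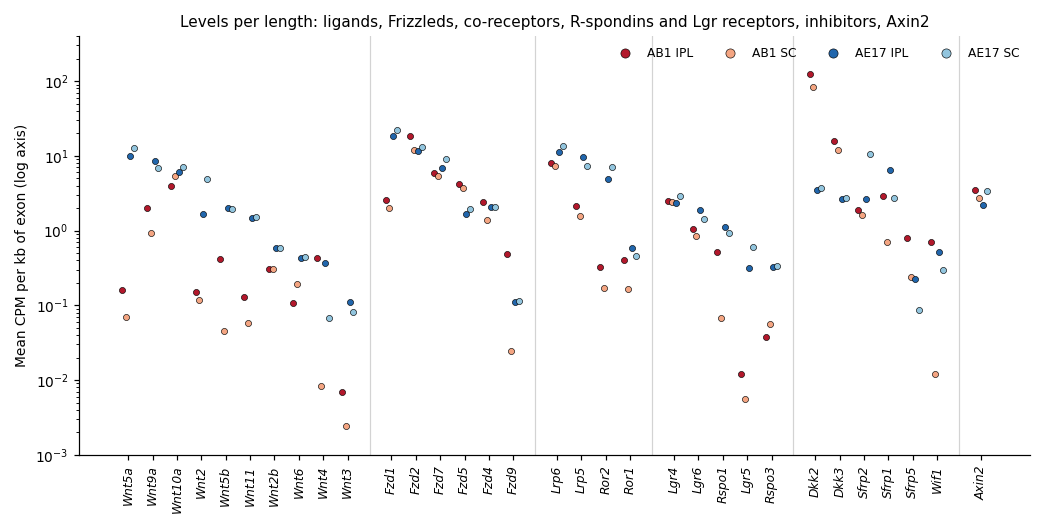
Mean CPM per kb of exon (log axis) of each member that reached 0.1 CPM per kb in some group, one point per group of 8 tumors, with roles separated by vertical lines and no error bars. Dkk2 stands highest of all in the AB1 tumors, Wnt5a leads the ligands in AE17 only, and Axin2 lies between 2.21 and 3.51 in all 4 groups.

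Among receptors, Fzd2 led in AB1 tumors with 11.9 ± 0.927 CPM per kb in SC tumors and Fzd1 in AE17 tumors with 22.3 ± 3.80, and Lrp6 had the highest mean of the co-receptors in all 4 groups. In AE17 IPL tumors, however, Lrp6 (11.4 ± 1.43 CPM per kb) and Lrp5 (9.59 ± 0.917) did not differ beyond their spread. The models also differed in their leading inhibitor. Dkk2, an antagonist at Lrp6 that can also activate weakly, stood at 84.3 ± 12.3 CPM per kb in AB1 SC and 124.9 ± 31.8 in AB1 IPL tumors, or 85.3% and 85.0% of the inhibitor signal. Sfrp2, a Wnt-binding protein made mainly by fibroblasts, led the inhibitors in AE17 SC tumors with 52.9% of their signal. Even so, Sfrp2 (10.7 ± 5.87 CPM per kb) and Dkk2 (3.70 ± 1.13) lay within their spread there. Sfrp1, a relative, led in AE17 IPL tumors with 40.6%, where Sfrp1 (6.51 ± 3.63 CPM per kb) and Dkk2 (3.49 ± 1.33) lay within their spread. The R-spondins were low throughout, and Rspo1 did not pass 1.12 CPM per kb on average in any group.

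A low group of 12 members passed the filter on low counts in no comparison. These were Dkk1, Dkk4, Fzd3, Fzd9, Fzd10, Rspo4, Wnt1, Wnt3, Wnt3a, Wnt7a, Wnt9b and Wnt16. Their counts lay between 0 and 51 per tumor, and Wnt7a had 0 counts in all 32.

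The first comparison asked how the members differed between pleural and subcutaneous AB1 tumors. Most that moved were higher in the pleural cavity: Sfrp1, Wnt9a, Wnt5a, Ror1, Fzd2, Fzd4, Dkk2, Dkk3 and Axin2 rose and Wnt10a fell. Of 42 members 20 could be tested, and 10 of these passed the threshold, an adjusted p under 0.05 in edgeR's quasi-likelihood test with Benjamini-Hochberg adjustment over all genes. The background is high, since 23% of the 14645 genes tested passed (12.3% higher and 10.7% lower in IPL tumors). The 20 members had a median log2 fold change of 0.37, beside -0.00225 for all genes, and 18 of them had a positive estimate. In whole-tumor RNA, fewer cells of a type and less RNA per cell cannot be told apart.

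Axin2 (GRCm38 chr11:108920349-108950783, + strand) lay between 13.6 and 25.9 CPM in AB1 IPL tumors, with a median of 18.8, and between 12.3 and 16.7 in SC tumors, with a median of 14.9. The groups overlapped, with 6 of 8 IPL tumors above every SC tumor. The log2 fold change was 0.37 ± 0.12 (SE, adjusted p = 0.0287, edgeR). It no longer passed without AB1 IPL replicate 4 (0.28, adjusted p = 0.0722), without AB1 SC replicate 2 (0.36, adjusted p = 0.0509), or without both AB1 IPL tumors that stand apart (0.21, adjusted p = 0.11).

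The RefSeq promoters of Axin2, Dkk2, Fzd7 and Wnt4 are shown as examples, from 250 bases before to 50 bases after the RefSeq start on the + strand of GRCm38.p6. Axin2, Dkk2 and Fzd7 passed between sites or models, and the Wnt4 counts of the AE17 sites did not overlap. Other members that passed, such as Fzd4, Wnt9a and Wnt5b, also have an entry and are not shown. The letters CTTTGAA or CTTTGAT and the variants CTTTGTA or CTTTGTT, the core that TCF and LEF factors are known to bind, were searched on both strands and stand in capitals where found. Of all 32841 promoter windows 16.9% held at least 1 such match, as did 5 of 34 windows of the 31 members with an entry (14.7%). Axin2, Dkk2 and Wnt4 had no match in this window, and Fzd7 had 1, on the other strand, beginning at position -130 from the start. The windows span chr11:108920099-108920398 (Axin2), chr3:132085042-132085341 (Dkk2), chr1:59481897-59482196 (Fzd7) and chr4:137277385-137277684 (Wnt4). The GENCODE gene models of Fzd7 and Wnt4 begin elsewhere, at 59482424 and 137277489.
Axin2: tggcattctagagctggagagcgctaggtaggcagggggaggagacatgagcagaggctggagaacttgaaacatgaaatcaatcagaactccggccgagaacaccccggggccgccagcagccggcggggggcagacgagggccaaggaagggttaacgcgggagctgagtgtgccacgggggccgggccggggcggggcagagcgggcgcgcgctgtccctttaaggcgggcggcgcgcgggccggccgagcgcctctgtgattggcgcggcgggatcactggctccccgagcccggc
Dkk2: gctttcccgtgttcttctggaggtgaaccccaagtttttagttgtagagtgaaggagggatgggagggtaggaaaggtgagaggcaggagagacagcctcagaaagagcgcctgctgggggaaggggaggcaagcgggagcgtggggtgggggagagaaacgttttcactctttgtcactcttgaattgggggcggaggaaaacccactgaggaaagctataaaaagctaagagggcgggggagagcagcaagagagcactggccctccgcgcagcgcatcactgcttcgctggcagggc
Fzd7: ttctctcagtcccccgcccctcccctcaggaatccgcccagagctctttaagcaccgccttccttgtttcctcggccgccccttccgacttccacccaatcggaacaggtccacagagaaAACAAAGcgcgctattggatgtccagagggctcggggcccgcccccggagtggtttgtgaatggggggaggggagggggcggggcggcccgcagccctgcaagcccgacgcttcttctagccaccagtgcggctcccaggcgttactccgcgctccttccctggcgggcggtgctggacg
Wnt4: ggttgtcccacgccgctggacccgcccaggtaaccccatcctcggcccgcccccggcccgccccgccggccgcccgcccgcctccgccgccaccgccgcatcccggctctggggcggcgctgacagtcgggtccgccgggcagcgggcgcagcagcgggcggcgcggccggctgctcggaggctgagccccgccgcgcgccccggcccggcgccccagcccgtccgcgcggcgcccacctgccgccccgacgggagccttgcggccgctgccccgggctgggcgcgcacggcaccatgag

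Among the AB1 ligands, Wnt9a reached 3.68 to 8.56 CPM in IPL tumors (median 6.51) against 2.38 to 4.78 in SC tumors (median 2.88). All but 1 IPL tumor lay above every SC tumor, a log2 fold change of 1.08 ± 0.17 (adjusted p = 0.000291, edgeR). Wnt5a, the main ligand of Ror receptors, was scarce in this model, with 0.365 to 2.66 CPM in IPL tumors (median 1.17) and 0.379 to 0.736 in SC tumors (median 0.533). It rose by a log2 fold change of 1.19 ± 0.33 (adjusted p = 0.0146), and 6 IPL tumors exceeded every SC tumor. Wnt10a, the leading AB1 ligand, moved the other way, from 11.8 to 14.6 CPM in SC tumors (median 13.7) to 7.35 to 12.9 in IPL tumors (median 9.85). Here 7 of 8 IPL tumors fell below every SC tumor, with a log2 fold change of -0.47 ± 0.11 (adjusted p = 0.00397). Wnt2b, at 0.757 to 2.00 CPM, had an estimate of -0.01 (adjusted p = 0.968).

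Among the AB1 receptors, Fzd2 ran from 46.7 to 98.9 CPM in IPL tumors (median 65.7) and from 38.8 to 49.8 in SC tumors (median 44.3), with 7 IPL tumors above every SC tumor and a log2 fold change of 0.63 ± 0.12 (adjusted p = 0.00146). Fzd4, a Frizzled of blood vessels, had 10.4 to 22.9 CPM in IPL tumors and 8.14 to 11.4 in SC tumors and rose by 0.77 ± 0.16 on the log2 scale (adjusted p = 0.00175). The sum of 7 endothelial markers lay at 124.5 to 219.6 CPM in IPL and 134.6 to 166.1 in SC tumors, and its part in the Fzd4 value was not tested. Ror1 rose by 1.27 ± 0.45 (adjusted p = 0.0484), but its IPL range of 0.522 to 7.82 CPM was set at the top by replicate 2, without which the log2 fold change was 0.70 (adjusted p = 0.117). Of the 16 fits that left out 1 tumor, 12 lost the call for Ror1. Ror2 (log2 fold change 0.92, adjusted p = 0.0532), Lrp5 (0.39, adjusted p = 0.104), Lrp6 (0.11), Fzd1 (0.32), Fzd5 (0.17) and Fzd7 (0.11) did not pass, nor did Lgr4 (0.01) and Lgr6 (0.32).

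Of 4 AB1 inhibitors tested, Sfrp1, Dkk2 and Dkk3 rose. Sfrp1 (GRCm38 chr8:23411502-23449632, + strand) had 3.97 to 23.7 CPM in AB1 IPL tumors (median 12.9) and 1.45 to 3.79 in SC tumors (median 3.20). It was the only 1 of the 20 tested members whose groups did not overlap, beside 5.02% of all genes tested, with a log2 fold change of 2.07 ± 0.32 (adjusted p = 0.000247, edgeR) and a 4.24-fold difference of means. Dkk2 had 264 to 626 CPM in IPL tumors (median 482.7) against 261 to 396 (median 301), a log2 fold change of 0.55 ± 0.15 (adjusted p = 0.0108) with 6 IPL tumors above every SC tumor. Dkk3, a divergent Dkk family protein, rose by 0.37 ± 0.13 (adjusted p = 0.0424), a call lost in 9 of the 16 fits that left out 1 tumor, which gave 0.27 to 0.42. Sfrp2 did not pass (0.23 ± 0.66, adjusted p = 0.829): its IPL values ran from 0.649 to 2.63 CPM in 7 tumors and stood at 23.3 in replicate 2, against 1.87 to 5.11 in SC tumors. Without the AB1 IPL tumors that stand apart its sign turned, to a log2 fold change of -1.57 (adjusted p = 0.0013).

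Cell type markers also differed between the AB1 sites, some higher and some lower in IPL tumors. The fibroblast list, 8 genes led by collagens, summed to 13090 to 35110 CPM in AB1 IPL tumors (median 19480) and 11070 to 14510 in SC tumors, and 6 of 8 of its genes rose. Skeletal muscle markers summed to 110 to 4517 CPM in IPL and 54.7 to 507.4 in SC tumors. T cell markers summed to 15.7 to 76.2 CPM in IPL tumors and 81.4 to 151.8 in SC tumors, and 6 of 6 fell. Macrophage markers summed to 1335 to 2581 CPM in IPL and 1824 to 2794 in SC tumors, and 3 of 6 fell. B cell markers lay at 17.1 to 84.2 and 12.7 to 18.3 CPM, and smooth muscle and pericyte markers at 177.6 to 250.1 and 144.7 to 190.6. The part of these cell types in the AB1 member values was not tested.

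**Figure D2:**
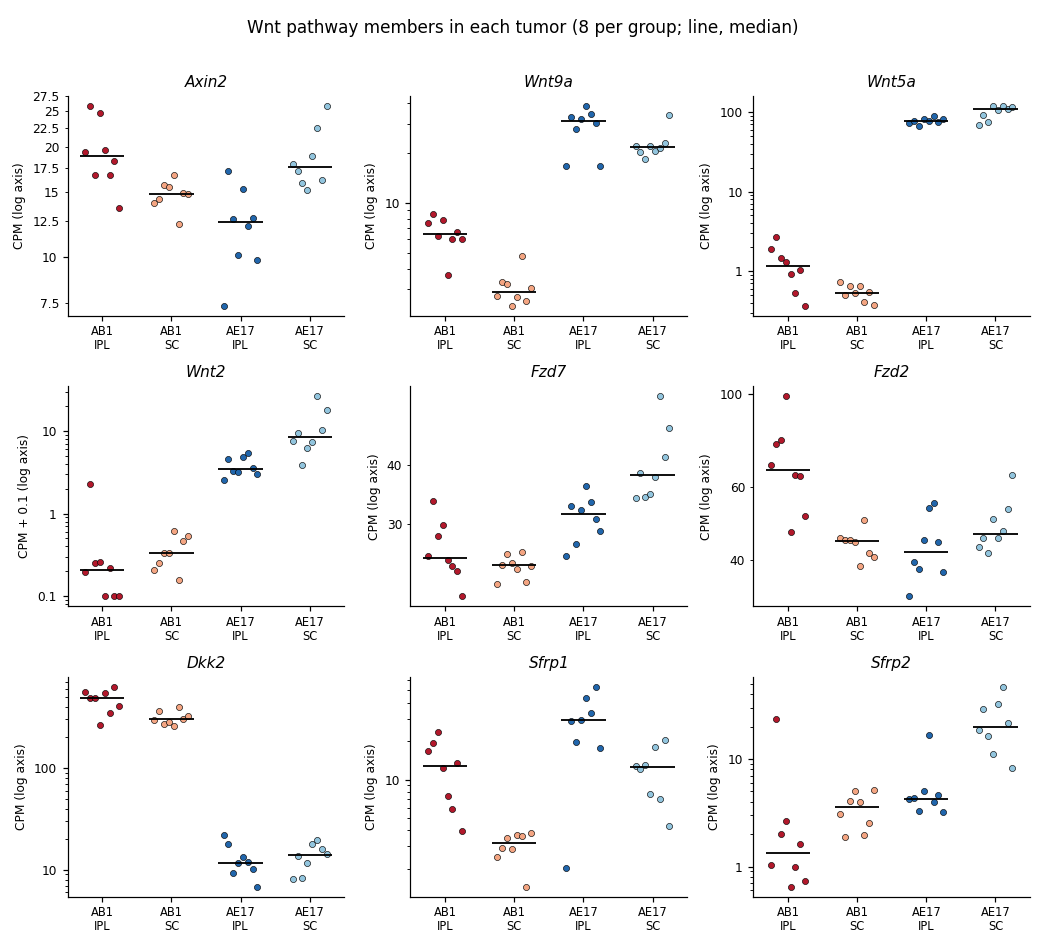
CPM of 9 members in each of the 32 tumors (log axes, CPM + 0.1 for Wnt2), with 8 points per group and a line at the median. Sfrp1 is the panel in which the AB1 sites do not overlap, Axin2 is higher in IPL tumors of AB1 and lower in IPL tumors of AE17, and Wnt5a and Dkk2 separate the models.

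The lanes were uneven between sites, and all 8 AB1 IPL tumors ran on lane 3 with 2 SC tumors, the other 6 SC tumors being on lane 2. With lane as a covariate, or with lane 3 alone, no AB1 member passed by edgeR (7 and 9 of those tested had an unadjusted p under 0.05, among them 7 and 4 of the 10 called members). All 10 kept their direction, at 0.854 to 1.22 times the fitted size with lane as a covariate and 0.794 to 1.15 times within lane 3. Over all genes the calls fell from 3374 to 386 and 169 in the same fits.

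The same comparison in AE17 tumors gave mostly lower levels in the pleural cavity. Sfrp2, Wnt2, Axin2 and Fzd7 fell and Lrp5 rose. Of 42 members 28 could be tested and 5 passed, against 5.73% of the 14668 genes tested (2.60% higher and 3.13% lower in IPL tumors). The members' median log2 fold change was -0.08, beside 0.00428 for all genes, with 19 of 28 estimates negative. The groups overlapped for all 28 members tested, where 0.573% of all genes tested had no overlap.

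Sfrp2 had 3.25 to 16.6 CPM in AE17 IPL tumors (median 4.27) and 8.30 to 46.9 in SC tumors (median 20.0). Replicate 5 held the IPL maximum and the other 7 IPL tumors lay below every SC tumor. The log2 fold change was -2.02 ± 0.40 (adjusted p = 0.0139, edgeR). Wnt2, a ligand that signals through beta-catenin and is known from lung mesenchyme, had 2.43 to 5.35 CPM in IPL tumors (median 3.33) and 3.83 to 26.2 in SC tumors (median 8.33), with a log2 fold change of -1.57 ± 0.33 (adjusted p = 0.0172). The 5 lowest IPL tumors lay below every SC tumor.

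Axin2 had 7.36 to 17.1 CPM in AE17 IPL tumors (median 12.4) and 15.2 to 25.8 in SC tumors (median 17.6), with 6 IPL tumors below every SC tumor. It fell by 0.62 on the log2 scale (SE 0.16, adjusted p = 0.0338, edgeR), and 8 of 16 fits that left out 1 tumor (AE17 IPL replicate 3, 4, 6, 7 or 8, or SC replicate 5, 6 or 8) lost the call, although the estimates stayed between -0.72 and -0.54. Fzd7, a Frizzled coupled to beta-catenin in many epithelia, had 25.7 to 36.1 CPM in IPL tumors (median 31.4) and 34.1 to 55.8 in SC tumors (median 38.0). Its log2 fold change was -0.39 ± 0.11 (adjusted p = 0.041), with 7 IPL tumors below every SC tumor, and 12 of 16 such fits lost the call while giving -0.44 to -0.31. Lrp5 rose from 55.6 to 89.4 CPM (median 69.1) in SC tumors to 78.7 to 110.9 (median 92.1) in IPL tumors, a log2 fold change of 0.39 ± 0.09 (adjusted p = 0.0248) that missed the threshold without SC replicate 5 (0.37, adjusted p = 0.0513).

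The most abundant AE17 ligand, Wnt5a, had 67.3 to 89.2 CPM in IPL tumors and 69.0 to 119.9 in SC tumors and did not pass (log2 fold change -0.37 ± 0.11, adjusted p = 0.0547). Sfrp1 did not pass either (1.27 ± 0.44, adjusted p = 0.0908). Its IPL tumors lay at 17.7 to 53.3 CPM except replicate 1, at 2.02, and its SC tumors at 4.30 to 20.3. Wnt9a (0.35), Wnt10a (-0.25), Wnt11 (-0.04), Wnt5b (0.05), Fzd1 (-0.27), Fzd2 (-0.17), Fzd4 (-0.03), Fzd5 (-0.21), Lrp6 (-0.26), Ror1 (0.36), Ror2 (-0.52), Rspo1 (0.26), Lgr4 (-0.345), Lgr5 (-0.91), Lgr6 (0.37), Dkk2 (-0.08), Dkk3 (-0.02) and Wif1 (0.78) had adjusted p values of 0.137 or more.

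Among the marker sums of the AE17 sites, that of 6 B cell genes did not overlap, with 54.4 to 257.8 CPM in IPL and 11.6 to 52.9 in SC tumors, and 2 of its 3 tested genes rose. Smooth muscle and pericyte markers summed to 190.1 to 405.2 CPM in AE17 IPL tumors and 259.2 to 622.3 in SC tumors, and fibroblast markers to 13240 to 24050 and 14910 to 24520. SC replicate 6, with the highest sums of hair follicle, smooth muscle and fibroblast markers, held the highest Sfrp2 and Wnt2 values. The part of these cell types in the member values was not tested. Without SC replicates 5, 6 and 7 the directions held but none of the 5 members passed, with Sfrp2 at -1.56 (adjusted p = 0.137), Wnt2 at -1.26 (0.107), Axin2 at -0.60 (0.221), Fzd7 at -0.30 (0.275) and Lrp5 at 0.27 (0.24), while calls over all genes fell from 840 to 40. With lane as a covariate or with lane 1 alone (3 IPL and 8 SC tumors) no member passed by edgeR (6 and 7 of those tested had an unadjusted p under 0.05). The 5 called members kept their direction at 0.953 to 1.26 and 0.952 to 1.26 times the fitted size, and calls over all genes fell to 1 and 14.

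**Figure D3:**
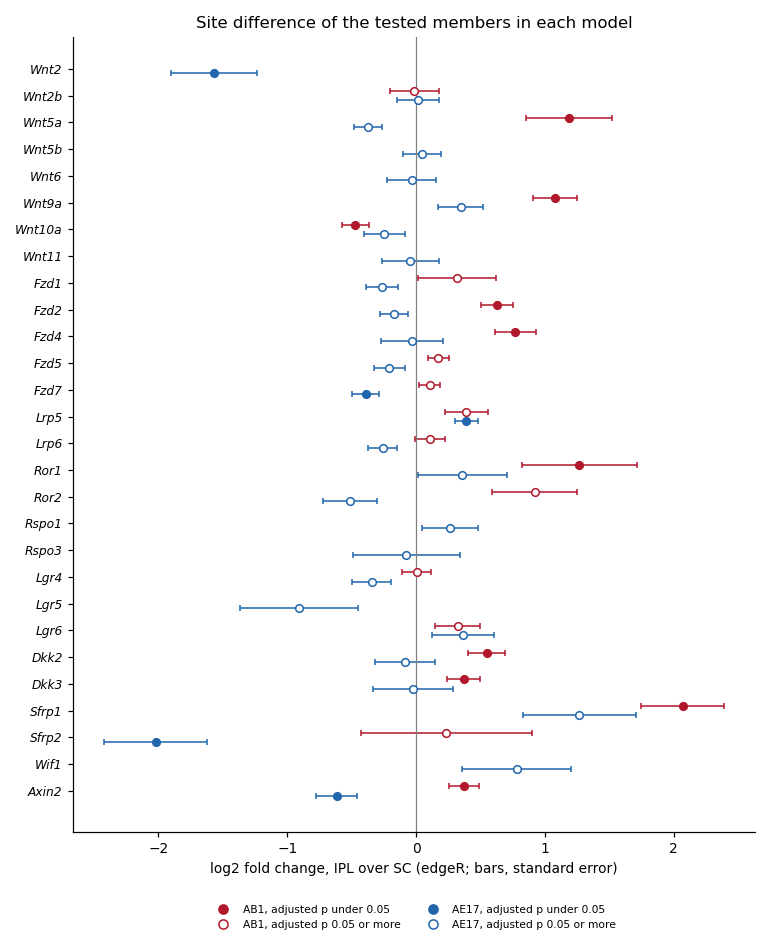
Log2 fold change of IPL over SC tumors (edgeR, bars show the standard error) for each tested member, AB1 in red and AE17 in blue, filled where the adjusted p is under 0.05. Red points lie mostly to the right of 0 and blue points mostly to the left, and Axin2 is filled on both sides.

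The difference between the site effects was then tested directly, as AE17 minus AB1 in a fit of all 32 tumors. Of 30 members tested 13 passed, below 0, that is, with a pleural level relative to the subcutaneous level that was lower in AE17 than in AB1. Of these 13, Wnt4 and Wif1 reached the test only through the IPL tumors, since fewer than 8 of 16 SC tumors were at the filter's cutoff (10 counts in a library of median size). The filter thus favored higher IPL levels for these genes, so nothing is drawn from their fitted differences. The other 11 were below 0 too, as were the 7 that passed with at least 10 counts in every tumor. Over all 15681 genes 20.5% passed, 8.62% above and 11.9% below 0. The median over the members was -0.78, beside -0.0175 over all genes. Of the 20 members tested within both models, 13 had a higher estimate in AB1 IPL and a lower one in AE17 IPL tumors, and Axin2 was the one member that passed within both. Cell type markers differed in the same contrast: 6 of 8 fibroblast, 6 of 8 skeletal muscle and 3 of 5 smooth muscle and pericyte markers passed below 0. Above 0 were 5 of 6 T cell and 3 of 6 macrophage markers, and 0 of 7 endothelial markers passed. The part of these cell types in the members' contrast was not tested.

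Axin2 differed by -1.01 ± 0.20 on the log2 scale (adjusted p = 0.000786, edgeR), with site effects of 0.37 and -0.62 in AB1 and AE17. Every fit that left out 1 tumor gave -1.09 to -0.93 and passed, as did the fits without the AB1 IPL and AE17 IPL tumors that stand apart (-0.93, adjusted p = 0.00114) and without the hair follicle tumors (-1.0, adjusted p = 0.00448). Wnt5a differed by -1.57 ± 0.32 (adjusted p = 0.00113), Wnt9a by -0.75 ± 0.24 (0.0282) and Ror2 by -1.45 ± 0.39 (0.00853). Wnt9a lost its call without AE17 SC replicate 8.

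Of the Frizzled genes, 4 of 5 tested passed below 0. Fzd2 (-0.82 ± 0.17, adjusted p = 0.00115), Fzd7 (-0.51 ± 0.13, 0.00722), Fzd4 (-0.82 ± 0.29, 0.0414) and Fzd5 (-0.40 ± 0.14, 0.0449) were these 4, and Fzd1 did not pass (-0.60 ± 0.33, 0.204). The calls of Fzd4 and Fzd5 were lost in 19 and 17 of 32 fits that left out 1 tumor. Sfrp2 (-2.27 ± 0.81, adjusted p = 0.0431) rested on AB1 IPL replicate 2, without which it was -0.71 (adjusted p = 0.382), and 17 of 32 fits that left out 1 tumor lost its call. With lane as a covariate no member passed by edgeR (12 had an unadjusted p under 0.05), and the calls over all genes fell to 117. All 13 members that had passed, Axin2 among them, lost the call there and kept their direction.

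The remaining 4 members that passed in the contrast had few counts. Wnt4, a ligand best known from kidney and female gonad, had 1 to 130 counts in AB1 IPL tumors and 0 or 1 in AB1 SC tumors, and 10 to 58 in AE17 IPL against 2 to 7 in AE17 SC tumors. The 8 AE17 IPL tumors all lay above every AE17 SC tumor. The filter on low counts removed Wnt4 from both site comparisons. As Wnt4 reached the contrast through the IPL tumors alone, nothing is drawn from its fitted difference. The 8 mesothelial markers summed to 128.7 to 228.4 CPM in AE17 IPL and 114.5 to 195.6 in AE17 SC tumors, nearly all of it Pdpn (117.7 to 226.4 and 113.8 to 184.2 CPM). Upk3b, Lrrn4 and Wt1, the more specific of them, had 0 to 114, 0 to 89 and 0 to 43 counts in AE17 IPL and at most 1, 3 and 5 in AE17 SC tumors. AE17 IPL replicate 1 had the highest mesothelial sum of the AE17 tumors, 0 counts of these 3 genes and 10 counts of Wnt4. The part of mesothelial cells in the Wnt4 values was not tested.

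Wnt5b, a relative of Wnt5a, had 7 to 38 counts in AB1 IPL and 0 to 4 in AB1 SC tumors, without overlap, whereas AE17 tumors had 4.33 to 6.94 CPM in IPL and 3.72 to 7.39 in SC tumors. The site effects differed by -3.06 ± 0.44 (adjusted p = 4.3e-05, edgeR). Wif1, a Wnt-binding inhibitor, had 0 to 91 counts in AB1 IPL and 0 or 1 in AB1 SC tumors, against 5 to 45 and 3 to 22 in AE17. Nothing is drawn from its fitted difference, since Wif1, like Wnt4, reached the contrast only through the IPL tumors. Rspo1, an amplifier of Wnt signals known from the female gonad, had 1 to 111 counts in AB1 IPL and 1 to 4 in AB1 SC tumors, and its difference of -2.61 ± 0.89 (adjusted p = 0.0346) was -0.88 (adjusted p = 0.24) without AB1 IPL replicate 2, and the call was also lost without AB1 SC replicate 3, 4 or 7. Fitted values of genes this low depend on the prior count and are no bound on the fold.

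**Figure D4:**
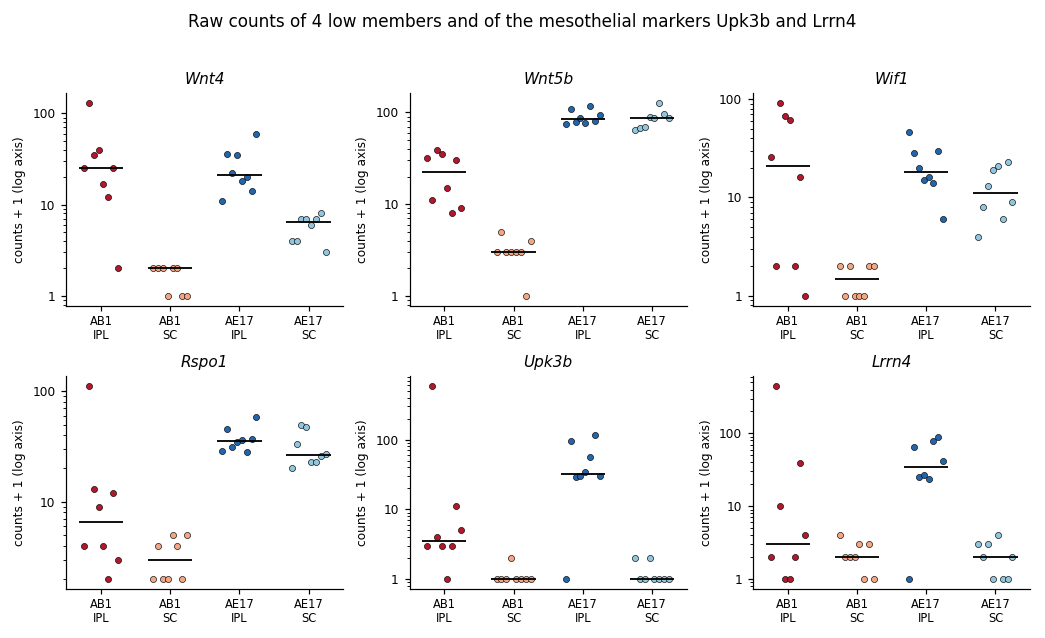
Raw counts plus 1 (log axes) of 4 low members and of the mesothelial markers Upk3b and Lrrn4 in each tumor, with a line at the median of each group of 8. Wnt4 and Wnt5b are near 0 in AB1 SC tumors, and AB1 IPL replicate 2 holds the highest AB1 value of Wnt4, Rspo1, Upk3b and Lrrn4.

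The models were compared at each site. At the SC site 24 of 26 tested members passed, 3 higher in AB1 and 21 higher in AE17, where 63.7% of 14718 genes passed (31.2% higher in AB1 and 32.5% in AE17). At the IPL site 20 of 28 passed, 5 higher in AB1 and 15 in AE17, against 59.1% of 14886 genes (30.5% and 28.6%). The members' median log2 fold changes, AB1 over AE17, were -1.37 and -0.68, beside -0.00265 and 0.0156 for all genes, and 19 members passed at both sites. The models did not overlap for 17 members tested at SC and 13 at IPL, beside 31.4% and 28.5% of all genes tested. At SC, 7 of the members that passed (Lgr5, Rspo1, Wnt11, Wnt2, Wnt5a, Wnt5b and Wnt6) reached the test through the AE17 tumors, with fewer than 4 of 8 AB1 tumors at the filter's cutoff, so the filter favored a higher AE17 level. At IPL these were 4 (Lgr5, Wnt11, Wnt2 and Wnt6). Among the others 3 were higher in AB1 and 14 in AE17 at SC, and 5 and 11 at IPL, and the medians above include the members that the filter favored in this way. These comparisons use the same tumors as the site comparisons. Cell type markers differed between the models too. At SC, 6 of 7 endothelial, 4 of 5 smooth muscle and pericyte and 5 of 8 fibroblast markers were lower in AB1, and 2 of 8 fibroblast markers higher. At IPL, 5 of 6 T cell and 4 of 6 macrophage markers were lower in AB1 and 5 of 8 skeletal muscle markers higher. Their part in the model differences was not tested.

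Among the ligands, Wnt5a had 6 to 14 counts in AB1 SC tumors and lay between 69.0 and 119.9 CPM in AE17 SC tumors, a 184-fold difference of means. In IPL tumors it was 61.4-fold lower in AB1 (log2 fold change -5.91 ± 0.27, adjusted p = 9.9e-12, edgeR), with no overlap at either site. Its receptor Ror2 was 41.5-fold and 15.1-fold lower (-5.37 ± 0.28 and -3.89 ± 0.29). Wnt9a (-2.88 and -2.11), Wnt2b (-0.94 and -0.93) and Wnt10a (-0.40 and -0.57) were lower in AB1 at both sites, although Wnt10a lost its SC call without AB1 SC replicate 7 or 8 (-0.37) and was -0.21 (adjusted p = 0.0326) without AE17 SC replicate 6. Wnt5b was lower in AB1 at IPL (-2.24), and at SC it had 0 to 4 counts in AB1 and 64 to 127 in AE17 tumors. Wnt11 had 1 to 31 counts in AB1 and 64 to 194 in AE17 tumors, and Wnt2 had 0 to 41 and 41 to 450, neither with overlap of the models in CPM at either site. Wnt6 had 1 to 14 and 8 to 24 counts and overlapped at SC. No test supports the values of Wnt11, Wnt2 and Wnt6, or those of Wnt5a and Wnt5b at SC, since these reached it through the AE17 tumors.

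Receptors were mixed. Fzd1 was lower in AB1 at both sites (log2 fold changes -3.47 ± 0.13 and -2.84 ± 0.31), and Lrp5 stood at -2.21 ± 0.11 and -2.17 ± 0.16, both without overlap of the models. Lgr5, a stem cell receptor of R-spondins, had 0 to 10 counts in AB1 tumors and 17 to 204 in AE17 tumors. Lrp6 (-0.92 and -0.51) and Lgr6 (-0.79 and -0.79) also passed at both sites, and Fzd5 was higher in AB1 (0.91 and 1.34). Fzd2 passed only at IPL in these tests (0.68 ± 0.15, adjusted p = 0.000737, against -0.17, adjusted p = 0.0796, at SC).

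Of the inhibitors, Dkk2 stood 22.8-fold above AE17 at the SC site and 35.8-fold above it at the IPL site (on the log2 scale 4.50 ± 0.18 and 5.17 ± 0.25, adjusted p = 1.3e-12 and 1.7e-11, edgeR), and its AE17 tumors lay at 6.83 to 22.1 CPM. Dkk3 was 4.42-fold and 5.89-fold higher in AB1 (2.13 and 2.57). Sfrp1 was lower in AB1 (-1.98 and -1.14), although at IPL the call was lost in 11 of 16 fits that left out 1 tumor. Axin2 changed sides: it was lower in AB1 at SC (-0.35 ± 0.10, adjusted p = 0.00725) and higher at IPL (0.69 ± 0.17, adjusted p = 0.00205).

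**Figure D5:**
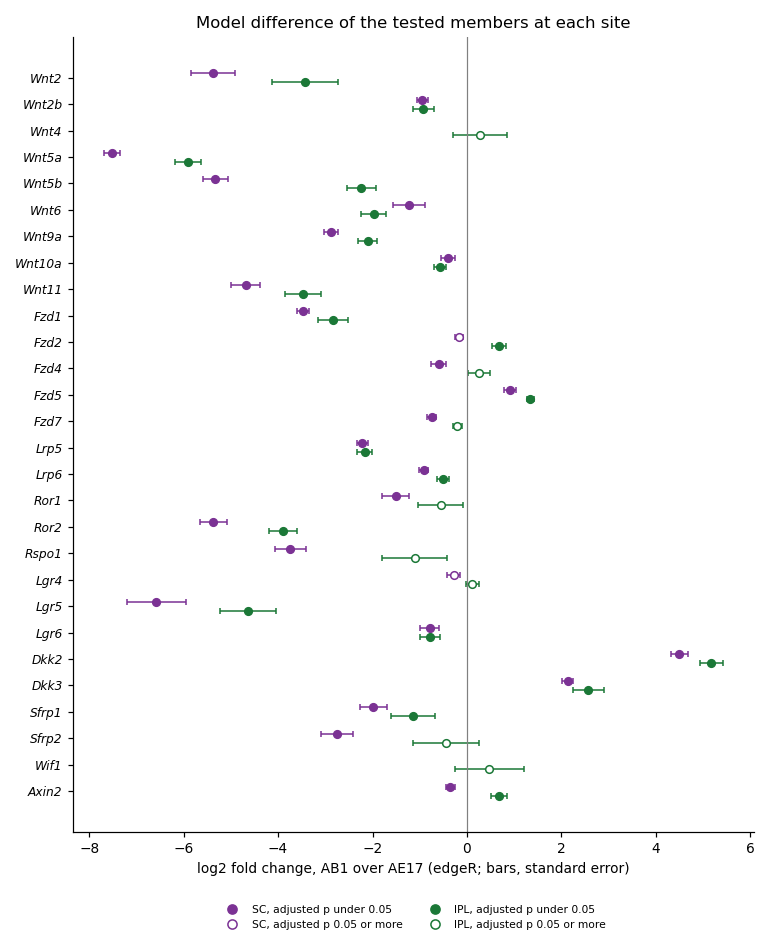
Log2 fold change of AB1 over AE17 tumors (edgeR, bars show the standard error) for each tested member, at SC in purple and at IPL in green, filled where the adjusted p is under 0.05. The ligands lie left of 0 except Wnt4 at IPL, Dkk2, Dkk3 and Fzd5 lie to the right at both sites, and Axin2 lies on either side of 0. The points of Lgr5, Rspo1, Wnt11, Wnt2 and Wnt6, and at SC of Wnt5a and Wnt5b, rest on genes that passed the filter through the AE17 tumors.

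Other genes of the pathway were read from a list of 75, of which 63 were in the table. In AB1, 17 of 52 tested rose in IPL tumors and 4 fell, with a median of 0.05, where 12.3% and 10.7% of all genes did. In AE17, 1 of 57 rose and 5 fell, with a median of -0.10, beside 2.60% and 3.13% of all genes. In the contrast of site effects, 1 of 58 was above 0 and 22 below, with a median of -0.24, beside 8.62% and 11.9%. Of these, Trabd2b and Pygo1 in AB1 and Bmp4 and Celsr2 in the contrast reached the test through the IPL tumors, with under 4 of 8 and under 8 of 16 SC tumors at the filter's cutoff. The filter thus favored higher IPL levels for these genes there, so nothing is drawn from those calls. With lane as a covariate the calls fell to 0 in AB1, 0 in AE17 and 2, both below 0, in the contrast (15, 14 and 20 had an unadjusted p under 0.05, edgeR).

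Of the genes for the secretion and removal of Wnt, all 4 tested passed below 0 in the contrast of site effects, while 3 of 3 tested rose in AB1 (among them Trabd2b, which the filter favored) and 2 of 4 fell in AE17. Notum, a secreted enzyme that strips the lipid from Wnts and is itself a beta-catenin target, had 1.82 to 4.83 CPM in AE17 IPL and 7.48 to 29.6 in AE17 SC tumors, without overlap. Genes on the opposite strand cover 38.1% of its exon bases, and their reads may be among these counts. Its log2 fold change in AE17 was -1.64 (adjusted p = 0.00632, edgeR), and AB1 tumors had 0 to 3 counts. Trabd2b, a membrane protease that inactivates Wnts, had 12 to 121 counts in AB1 IPL and 2 to 10 in AB1 SC tumors and fell in AE17 (-1.80, adjusted p = 0.0165). Porcn and Wls, which add the lipid and carry Wnts to the surface, differed by -1.0 (adjusted p = 0.00177) and -0.51 (adjusted p = 0.00279).

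Adgra2, a co-receptor of Wnt7 signals in vessels, rose in AB1 (0.46, adjusted p = 0.00663) and fell in AE17 (-0.97, adjusted p = 0.0153). Prickle1, of the planar polarity branch, rose in both (0.75, adjusted p = 0.00415, and 0.31, adjusted p = 0.0379). Of a list of further beta-catenin targets, 1 of 10 tested rose in AB1 (Nkd2, 1.51) and 4 fell (Rnf43, -1.26, Wisp2, -1.03, Lef1, -0.94, and Cd44, -0.27), with a median of -0.26. In AE17, 0 of 13 rose and 2 fell (Notum and Ccnd1, -0.49), with a median of -0.15. In the contrast 7 of 13 estimates were above 0, with a median of 0.01: Notum, Nkd1 (-1.59), Nkd2 (-1.90) and Bmp4 passed below 0 and Rnf43, a ligase that removes Frizzled, above (1.09, adjusted p = 0.0401). Ligand receptors and carriers Ryk (-0.40), Gpc3 (-2.25), Gpc4 (-0.77) and Kremen1 (-0.38), the cytoplasmic genes Dvl2 (-0.41), Dvl3 (-0.39) and Apc2 (-1.63), the nuclear factors Pygo1 (-2.76), Tcf7l1 (-1.06), Tle2 (-0.65), Ctbp1 (-0.43) and Bcl9 (-0.32), and the polarity genes Celsr2 and Vangl1 (-0.44) completed the 22 below 0.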

How the data were processed

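RNA from 32 tumors (8 per group) was sequenced by the facility as 50 bp single-end reads. According to the methods and the submitters' processing notes, the authors demultiplexed with bcl2fastq 1.8.4, aligned with HISAT2 2.0.4 to a mouse genome that they name mm11, and counted reads per gene. The deposited values are whole-number counts per gene without normalization, and the strand setting of the counting is not given in the sources used here. Reads of genes that overlap on the opposite strand may therefore be shared. Such overlap covered 3.8% of the exon bases of Axin2, 16.1% of Sfrp2, 17.8% of Fzd5, 13.1% of Rspo3, 8.8% of Wnt11 and 4.6% of Wnt5a, and among the named pathway genes 38.1% of Notum, 23.4% of Ccnd1, 13.7% of Lef1 and, with a microRNA on the same strand, 19.7% of Dvl2. Of 39676 gene identifiers 39495, including all 42 members, matched GENCODE M21 (GRCm38) without their version, and gene positions and exon lengths were taken from there. Promoters came from RefSeq (GRCm38.p6).

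Counts were tested with edgeR 4.0.16 in R 4.3.3 (filterByExpr, TMM scaling, robust quasi-likelihood F test, two-sided, Benjamini-Hochberg adjustment over all genes tested, threshold 0.05). Each site comparison used the 16 tumors of its model, each comparison of models the 16 tumors of its site, and the difference of site effects all 32. CPM used TMM-scaled library sizes over all 32 tumors. The code was tested on simulated data. The alternatives were DESeq2 1.42.0, its size factors, no filter, a minimum of 10 counts in every tumor, all 32 tumors in 1 fit, a replicate block, lane as a covariate, the lane that holds both sites alone, and leaving out each tumor. Leaving out 3 tumors that stand apart, or 3 AE17 SC tumors with hair follicle genes, was added after the data were seen. The tumors through which each gene passed the filter were also counted then. Lanes were read from the column names. Replicates are separate mice, none of their libraries were duplicates, and each p-value sets a difference of groups against the spread between mice.

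The members and gene lists were chosen with earlier results of these data known. Members were named with values where they passed in a site comparison or in the difference of site effects, reached a mean of 5 CPM in a group or passed between the models at both sites, and Axin2 always. Pathway genes were named where they passed in both site comparisons or in the difference. Notum was also given within AE17, as were further target genes that passed within 1 model, chosen after their values were seen. Summaries and figures used Python 3.11.15, pandas 2.3.3, numpy 2.4.6 and matplotlib 3.10.9. Members of the families that are not among the 42 were not analysed here.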

Additional observations from a re-analysis of the deposited data

Results flagged for a closer look

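In 88 groups of 8 tumors, each with a member at 1 CPM or more on average, 15 had 1 tumor far from the rest by Dixon's criterion, where chance gives about 1 in 20. In AB1 IPL tumors these were Sfrp2 at 23.3 CPM in replicate 2 (high), Wnt9a at 3.68 in replicate 5 (low), and Lgr4 at 8.89 and Lrp6 at 56.3 in replicate 4 (both low). Sfrp1 was low in AB1 SC replicate 7, at 1.45 CPM. In AE17 IPL tumors, replicate 5 was high for Fzd4 (29.7 CPM) and Sfrp2 (16.6), and replicate 1 low for Ror1 (0.653) and Sfrp1 (2.02). In AE17 SC tumors, replicate 6 was high for Fzd5 (20.6 CPM), Lgr4 (28.6) and Wnt10a (32.4), replicate 8 high for Wnt11 (11.8) and Wnt9a (33.8), and replicate 4 low for Dkk3 (5.36). AE17 SC replicate 6 held the highest hair follicle sum, and AE17 IPL replicate 5 the highest adipocyte sum of all tumors, 418.8 CPM. The part of these tissues in the member values was not tested.

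The site effect differed between the models, by the test of the difference itself in edgeR, for 13 of 30 members tested, where 20.5% of all genes passed, and for 0 with lane as a covariate (12 had an unadjusted p under 0.05). As log2 values, AE17 minus AB1, these were Wif1 -4.79, Wnt5b -3.06, Wnt4 -3.03, Rspo1 -2.61, Sfrp2 -2.27, Wnt5a -1.57, Ror2 -1.45, Axin2 -1.01, Fzd4 -0.82, Fzd2 -0.82, Wnt9a -0.75, Fzd7 -0.51 and Fzd5 -0.40. Wif1 and Wnt4 reached that test only through the IPL tumors, where they are higher, so their values support no difference. Of the others, Axin2 passed within each model in opposite directions.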

How the results depend on the processing

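The count of members past the threshold was 10 for AB1 sites, 5 for AE17 sites, 13 for the difference of site effects, 24 for the models at SC and 20 at IPL. DESeq2 gave 17 and a fit of all 32 tumors 16 for AB1. With at least 10 counts in every tumor, where fewer members were tested, the difference gave 7, the SC models 15 and the IPL models 13. Lane as a covariate gave 0 for AB1, 0 for AE17 and 0 for the difference, and the shared lane alone 0 and 0 for the sites. Without the hair follicle tumors AE17 gave 1 (Wnt4, 2.63, adjusted p = 0.0427, which passed the filter there through the IPL tumors alone and supports nothing) and the difference 7. DESeq2 size factors and no filter moved no count past 1.5 times. Leaving out each tumor gave 8 to 14 for AB1, 3 to 7 for AE17, 9 to 14 for the difference, 23 to 26 at SC and 19 to 26 at IPL. Where no cause is named, it was not tested.

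Whether same-numbered tumors were matched is not given in the sources used here. Same-numbered AB1 tumors had a mean correlation of -0.118, beside 0.018 for other AB1 pairs. In AE17 the means were 0.072 and -0.007, with 5 of 8 same-numbered pairs over 0.1. These values cannot settle the pairing. With the replicate block the counts were 7, 5, 9, 23 and 20. Of the called members, 7 of 10 in AB1 and 4 of 5 in AE17 kept the call, and 1 further AE17 member gained it. In the difference 4 lost it.

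Signs turned mainly for estimates near 0 or values that rest on few tumors. In AB1, Sfrp2 was -1.20 by DESeq2, -1.0 with the block and -1.57 without the tumors that stand apart, Fzd1 -0.18 and Fzd7 -0.0001 without them, and Lgr4 -0.0012 with at least 10 counts, -0.01 with the block, -0.09 with lane and -0.13 in the shared lane. In AE17 without the hair follicle tumors Dkk2 was 0.20, Dkk3 0.03 and Fzd4 0.29. For the difference, Lgr6 was -0.04 with lane and -0.02 without the hair follicle tumors, Lrp5 0.04 with the block, 0.04 with lane and 0.20 without the tumors that stand apart, and Wnt2 0.32 without the latter. Leaving out 1 tumor gave -1.32 to 0.40 for Sfrp2, -0.02 to 0.45 for Fzd1 and -0.04 to 0.06 for Lgr4 in AB1, -0.23 to 0.01 for Dkk2, -0.45 to 0.08 for Dkk3, -0.30 to 0.05 for Fzd4, -0.14 to 0.14 for Wnt11 and -0.03 to 0.14 for Wnt5b in AE17, and -0.14 to 0.14 for Lgr6, -0.10 to 0.10 for Lrp5 and -2.16 to 0.14 for Wnt2 in the difference. Of all values of named members under the alternatives, 2721 kept direction and side of the threshold, 196 lost the call, 23 gained it and 71 turned sign.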
